A study of Homo sapiens with 3 samples.

Results

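The ADAM, ADAMTS and ADAMTSL genes were followed in the human prostate cancer line PC-3 after lentiviral delivery of short hairpin RNA (shRNA). The families comprised every protein-coding gene with the symbol ADAM, ADAMTS or ADAMTSL and a number whose identifier was listed in at least 1 of the 3 libraries, with pseudogenes and antisense RNA left out. This gave 38 genes of 18331 identifiers: 16 ADAM, 17 ADAMTS and 5 ADAMTSL genes. The other 6 protein-coding symbols of this kind, ADAM2, ADAM18, ADAM29, ADAM30, ADAMTS12 and ADAMTS19, were listed in no library. The KMT2D shRNA group held 2 libraries, called library 1 and library 2 below, with the labelled genotype KMT2D deficiency, and the control shRNA group held 1 library labelled KMT2D normal. All were polyadenylated RNA collected 7 days after infection. Separate cultures or hairpins are not named in the labels, so p-values measure only the spread between these libraries, which may be technical. The control had no replicate and was assumed to vary like the other libraries.

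ADAM proteins are membrane-anchored metalloproteases with a disintegrin domain. The active ones carry a zinc-binding catalytic site and cut other membrane proteins near the cell surface, which frees growth factors, cytokines and adhesion molecules, while several ADAMs without this site act as adhesion or receptor proteins. ADAMTS proteases are secreted, carry thrombospondin repeats and cut matrix proteins such as proteoglycans and procollagens, and the ADAMTSL proteins keep the repeats without the protease domain and sit in the microfibril network. In epithelial tumours ADAM sheddases are known for releasing ligands of the epidermal growth factor receptor and for cutting cadherins and Notch receptors.

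Library totals were 5157482 and 5123794 estimated counts for the libraries labelled KMT2D shRNA and 5559449 for the control. KMT2D itself, the target, was not lower in the libraries that carry its name: it stood at 107 and 138 CPM (counts scaled to a common library size) against 100.1 in the control. Its log2 fold change of 0.29 (SE 0.18) did not pass (edgeR quasi-likelihood test with Benjamini-Hochberg adjustment, adjusted p = 0.227), and it was -0.69 (edgeR adjusted p = 0.00701) once a dependence of the fold change on transcript length had been removed as a smooth trend (the length trend; its removal is called correction for length). Directions are therefore given for the libraries labelled KMT2D shRNA and not for a loss of KMT2D. Keratin and other epithelial markers were high in every library (summed FPKM of 6 genes 676, 707 and 1150), and KRT8, KRT18, KRT19 and KRT7 fell. The luminal prostate genes KLK3 and KLK2 were at 0 counts in all 3 libraries. Of the retina markers, listed because the series design text names retina, RCVRN and RLBP1 were at 0 in every library, while CRX had 62, 57 and 111 counts and fell (edgeR adjusted p = 0.0141). PDE6A had 52, 48 and 60 counts and PDE6B had 16, 18 and 31 counts, and neither passed.

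A small number of ADAM genes made up most of the family's RNA. On the FPKM scale, which divides by transcript length and so allows genes to be compared, the 38 genes summed to 268.9 in library 1, 323.5 in library 2 and 348.5 in the control. The 5 highest held 80.6%, 80.1% and 88.1% of that sum. ADAM15, whose disintegrin domain carries an integrin-binding RGD motif, was the highest member in each library, at 103, 114 and 166 FPKM. It alone held 38.2%, 35.3% and 47.6% of the family's FPKM. ADAM8, ADAM19, ADAM9, ADAM17 and ADAM10 followed by mean FPKM, and ADAMTS1 was the highest ADAMTS gene, at 6.72, 12.4 and 8.16 FPKM. Without ADAM15 and ADAM8 the sum was 131.7 and 170.8 FPKM in the labelled libraries and 115.7 in the control, so these 2 genes set the higher total of the control. Between 16 and 17 members reached 1 FPKM in a given library.

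**Figure D1:**
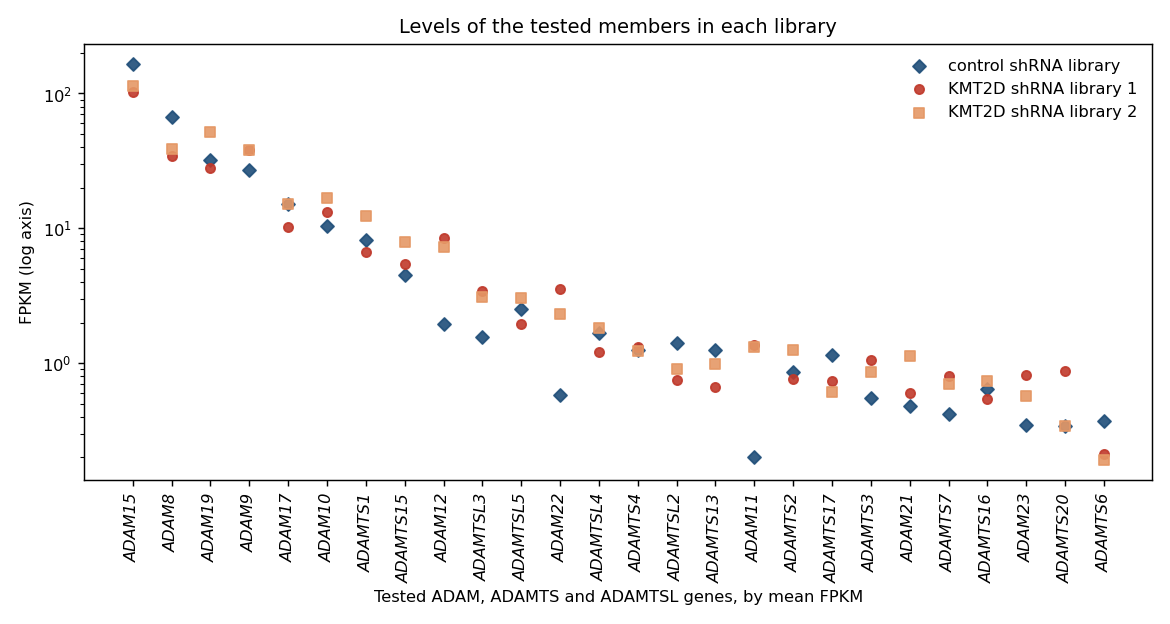
FPKM on a log axis of the 26 tested members in each of the 3 libraries, ordered by mean FPKM; each point is 1 library. ADAM15 leads in all libraries, and the control point lies well below both labelled libraries for ADAM12, ADAM22 and ADAM11.

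Of the 38 members, 26 passed the filter on low counts and were tested. The 12 that did not pass (ADAM7, ADAM20, ADAM28, ADAM32, ADAM33, ADAMTS5, ADAMTS8, ADAMTS9, ADAMTS10, ADAMTS14, ADAMTS18 and ADAMTSL1) had at most 7 counts in any library. Differences among them were not detectable at this depth. Among the tested members 6 rose, 2 fell and 18 did not pass at an edgeR adjusted p under 0.05, beside 16.5% of all 14016 tested genes that rose and 14.5% that fell. The members that rose were ADAM11, ADAM12, ADAM22, ADAMTSL3, ADAM10 and ADAM9, and those that fell were ADAM8 and ADAM15. As shares of the tested members these are 23.1% and 7.69%. DESeq2 called 2 higher (ADAM12 and ADAM22) and 2 lower (ADAM8 and ADAM15), beside 5.32% and 3.25% of all tested genes. It gave no adjusted p to several members with few counts, such as ADAM11, ADAMTS4 and ADAMTS17. On log2 FPKM limma called 0 members and 0 of all genes, with 5 members higher and 2 lower at an unadjusted limma p under 0.05. In the fit on log2(FPKM + 1), where 25 members were tested, 4298 of 14537 genes lay under that threshold in either direction. Among the 7667 other tested genes within the members' range of lengths 20.9% rose and 7.6% fell, so both shares lay near those of genes as long as the members. After correction for length 3 members rose and 3 fell, beside 8.7% and 9.14% of all tested genes and 9.81% and 9.17% of those within the members' range of lengths. Both labelled libraries lay above the control for 12 members and below it for 7, beside 41.5% and 42.8% of all tested genes. Of the 7667 other tested genes within the members' range of lengths, 4033 lay above in both and 2390 below.

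The catalytic sheddases moved in both directions, as did all tested genes, of which 16.5% rose and 14.5% fell. Of 8 sheddases tested, ADAM12, ADAM10 and ADAM9 rose, ADAM8 and ADAM15 fell, and ADAM17, ADAM19 and ADAM21 did not pass. After correction for length 1 of the 8 rose and 2 fell, beside 8.7% and 9.14% of all tested genes. ADAM12, or meltrin alpha, which is known from muscle and invasive tumours, stood at 50.1 CPM in library 1, 44.5 CPM in library 2 and 12.0 CPM in the control (262, 226 and 66 counts). Both labelled libraries were far above the control and close to each other. ADAM12 averaged 47.3 ± 3.92 CPM (SD, n = 2), and its log2 fold change was 1.98 with an SE of 0.24 (edgeR adjusted p = 5.43e-09). It was 1.60 (edgeR adjusted p = 1.43e-05) after correction for length. ADAM12 was called by DESeq2 as well (adjusted p = 3.44e-05). In bulk RNA a change in the share of cells that express a gene and a change in RNA per cell cannot be told apart.

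ADAM10, the constitutive sheddase that cuts Notch, N-cadherin and the amyloid precursor protein, had 51.4 and 67.4 CPM in the labelled libraries against 41.6 CPM in the control. The group mean was 59.4 ± 11.3 CPM (SD, n = 2), and its log2 fold change was 0.51 with an SE of 0.20 (edgeR adjusted p = 0.041). ADAM9, a widely expressed sheddase, had 156 and 158 CPM against 112 CPM. Its group mean was 157 ± 1.20 CPM (SD, n = 2), and its log2 fold change was 0.49 with an SE of 0.18 (edgeR adjusted p = 0.0304). Both labelled libraries lay above the control for each gene, but neither call held after correction for length (0.35, edgeR adjusted p = 0.228 for ADAM10, and 0.30, edgeR adjusted p = 0.237 for ADAM9). DESeq2 did not call either gene (adjusted p = 0.385 and 0.214). ADAM9 overlaps TM2D2 in the RefSeq table, and TM2D2, named for that overlap, fell by 0.71 on the log2 scale (edgeR adjusted p = 0.00426). No strand-marking step is named in the labels' protocols, so reads of such neighbours cannot be told apart where they overlap.

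ADAM8, a sheddase known from leukocytes and from inflamed and tumour tissue, fell. It stood at 113 CPM in library 1, 130 CPM in library 2 and 225 CPM in the control, on 591, 658 and 1236 counts. Library 1 held 0.503 times the control level (95% interval 0.455 to 0.555) and library 2 held 0.578 times (0.525 to 0.635), with intervals that cover counting error only. ADAM8 averaged 121 ± 11.8 CPM (SD, n = 2), and its log2 fold change was -0.89 with an SE of 0.17 (edgeR adjusted p = 5.16e-05). After correction for length it was at -0.95 (edgeR adjusted p = 0.00018). Of the leukocyte markers CD68 and LYZ fell, with a summed FPKM over 5 markers of 41.3, 44.1 and 102, while the lineage marker CD3E was at 0 in all libraries and PTPRC was between 0.77 and 1.47 FPKM. Their part in the level of ADAM8 was not tested.

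ADAM15 fell from 484 CPM in the control to 292 and 331 CPM, with both labelled libraries below the control. Its group mean was 311 ± 27.3 CPM (SD, n = 2), and its log2 fold change was -0.64 with an SE of 0.16 (edgeR adjusted p = 0.00211). After correction for length ADAM15 was at -0.61 (edgeR adjusted p = 0.0103), but the call was lost when a trend with GC content was removed as well (-0.45, edgeR adjusted p = 0.0644). ADAM8 still passed in that fit (-0.74, edgeR adjusted p = 0.013). The transcripts of ADAM15, ADAM8 and ADAM11 hold 62.3%, 64.4% and 62.2% GC, and those of ADAM10 and ADAM9 hold 38.3% and 38.8%. A part of GC content in the direction of these genes was not tested.

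ADAM17, the tumour necrosis factor converting enzyme, did not pass: it had 36.5 and 54.4 CPM in the labelled libraries and 55.2 CPM in the control, a log2 fold change of -0.28 with an SE of 0.20 (edgeR adjusted p = 0.291). Library 1 was low and library 2 was at the level of the control. ADAM19, or meltrin beta, known for cleaving neuregulins, had 181 CPM in library 1, 344 CPM in library 2 and 213 CPM in the control. The labelled libraries thus lay on either side of the control, and their mean of 262 ± 115 CPM (SD, n = 2) had the widest SD of any tested member in CPM. The fitted log2 fold change of ADAM19 was 0.30 (SE 0.21, edgeR adjusted p = 0.284), and -0.12 (edgeR adjusted p = 0.771) after correction for length. ADAM21, a gene known from testis, had 8, 15 and 7 counts and did not pass (log2 fold change 0.80, edgeR adjusted p = 0.473). ADAM21 is 1 of 8 members whose deposited estimate was not a whole number in some library, and such counts are uncertain.

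ADAM11, ADAM22 and ADAM23 are known as neural adhesion and receptor proteins without protease activity, and ADAM22 binds the secreted protein LGI1 at synapses. ADAM11 and ADAM22 rose, and ADAM23 did not pass. ADAM11 had 5.93 and 5.91 CPM in the labelled libraries and 0.908 CPM in the control, on 31, 30 and 5 counts. Its group mean was 5.92 ± 0.00923 CPM (SD, n = 2), and its log2 fold change was 2.67 with an SE of 0.62 (edgeR adjusted p = 8e-04). This was the largest fold change of a tested member, and the control count is so low that the 95% counting interval of the ratio ran from 2.52 to 21.5 in library 1. After correction for length ADAM11 was at 2.46 (edgeR adjusted p = 0.00622). DESeq2 gave ADAM11 no adjusted p.

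ADAM22 had 21.2 CPM in library 1, 16.4 CPM in library 2 and 5.45 CPM in the control. Both labelled libraries were above the control by more than they differed from each other. ADAM22 averaged 18.8 ± 3.44 CPM (SD, n = 2), and its log2 fold change was 1.78 with an SE of 0.31 (edgeR adjusted p = 1.73e-05), or 1.30 (edgeR adjusted p = 0.00468) after correction for length. The deposited transcript length of ADAM22 was 6060 bases in library 1, 6917 in library 2 and 9155 in the control. This spread makes the ratio to the control larger in FPKM (6.07 and 4) than in CPM (3.89 and 3.00). Lengths differed between libraries for 8 of the 38 members. ADAM23 had 13, 9 and 6 counts (log2 fold change 0.95, SE 0.83, edgeR adjusted p = 0.407).

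The upstream sequences of 4 members whose call held after correction for length, ADAM12 and ADAM22 among those that rose and ADAM8 and ADAM15 that fell, are printed to show what their start sites share. They are the 250 bases before the transcript start from RefSeq on build GRCh38.p14, read 5′ to 3′ on the gene's strand, with each GC box (GGGCGG on either strand) in capitals. The windows are ADAM12 at chr10:126388478-126388727 on the minus strand, ADAM22 at chr7:87934001-87934250 on the plus strand, ADAM8 at chr10:133276869-133277118 on the minus strand and ADAM15 at chr1:155051066-155051315 on the plus strand. ADAM11, the other such member that rose, is named only.
ADAM12: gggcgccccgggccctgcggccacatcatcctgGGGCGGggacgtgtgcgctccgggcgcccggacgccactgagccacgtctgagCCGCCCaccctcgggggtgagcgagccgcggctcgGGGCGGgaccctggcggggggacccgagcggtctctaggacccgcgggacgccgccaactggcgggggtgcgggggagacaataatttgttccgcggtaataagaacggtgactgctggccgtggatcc
ADAM22: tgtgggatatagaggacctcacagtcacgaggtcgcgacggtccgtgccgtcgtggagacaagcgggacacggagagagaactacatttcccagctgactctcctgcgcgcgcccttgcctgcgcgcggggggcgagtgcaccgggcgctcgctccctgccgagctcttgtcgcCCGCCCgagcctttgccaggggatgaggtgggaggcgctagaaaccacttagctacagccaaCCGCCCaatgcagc
ADAM8: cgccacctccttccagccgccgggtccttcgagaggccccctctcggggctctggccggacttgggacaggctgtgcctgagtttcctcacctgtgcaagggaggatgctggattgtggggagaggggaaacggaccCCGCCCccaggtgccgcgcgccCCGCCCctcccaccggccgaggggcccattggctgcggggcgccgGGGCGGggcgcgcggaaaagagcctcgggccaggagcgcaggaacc
ADAM15: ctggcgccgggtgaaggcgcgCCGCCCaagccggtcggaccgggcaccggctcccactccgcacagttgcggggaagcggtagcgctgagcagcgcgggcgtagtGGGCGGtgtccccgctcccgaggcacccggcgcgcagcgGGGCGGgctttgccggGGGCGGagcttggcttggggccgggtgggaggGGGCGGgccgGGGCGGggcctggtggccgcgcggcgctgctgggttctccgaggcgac
These windows hold 73.6%, 65.6%, 73.6% and 79.6% GC in that order, and 3, 2, 3 and 6 GC boxes. Genes that rose and genes that fell thus both have GC boxes. Of the 20 tested members with an entry, 17 (85%) hold a GC box, beside 42.6% of 35116 windows of the same length over all genes and 62% of those of tested genes. The members' windows had a median of 73.6% GC, beside 58.0% over all windows and 64.4% over those of tested genes. A part of GC content in the share with a GC box was not tested. An AP-1 site (TGANTCA) was found on either strand in 0 of the 20, beside 6.57% of all windows and 4.66% of those of tested genes. An E-box (CACGTG) was found in 3 of the 20, those of ADAMTS6, ADAM10 and ADAMTS17, beside 6.34% and 8.15%. A cyclic AMP response element (TGACGTCA) was found in 0 of the 20, beside 1.65% and 2.34%. An interferon-stimulated response element core was found in 0 of the 20, beside 3.02% and 2.45%. No overlap between these motifs was counted, and a match of letters is a description of the window only.

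None of the 11 tested ADAMTS proteases passed edgeR's test in either direction, beside 16.5% of all tested genes that rose and 14.5% that fell. Within the members' range of lengths these shares were 20.9% and 7.6%. Several of the 11 had few counts, which limits the test. At an unadjusted edgeR p under 0.05, 1 of the 11 was higher and 0 lower, where 5711 of 14016 tested genes lay under it in either direction. DESeq2 called 0, but it gave at least ADAMTS4 and ADAMTS17 no adjusted p, so these could not be called. Among the proteoglycan-cleaving members, ADAMTS1, which cuts versican and aggrecan, had 31.2 and 58.7 CPM in the labelled libraries and 38.9 CPM in the control. Its labelled libraries lay on either side of the control (44.9 ± 19.5 CPM, SD, n = 2). Its fitted log2 fold change was 0.21 with an SE of 0.23 (edgeR adjusted p = 0.521), or -0.04 after correction for length. ADAMTS15, also a versican-cleaving enzyme, had 30.8, 45.7 and 26.2 CPM and came nearest to the threshold (log2 fold change 0.55, SE 0.22, edgeR adjusted p = 0.0573). After correction for length ADAMTS15 was at 0.20 (edgeR adjusted p = 0.59), and DESeq2 did not call it (adjusted p = 0.461). ADAMTS4, an aggrecanase, was level at 5.73, 5.52 and 5.63 CPM. ADAMTS20 had 26, 10 and 11 counts, with library 1 alone above the control.

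The procollagen N-proteinases were low. ADAMTS3, which also acts with CCBE1 in the activation of VEGF-C, had 6.12, 5.12 and 3.27 CPM (log2 fold change 0.78, SE 0.47, edgeR adjusted p = 0.209), and ADAMTS2 had 11, 15 and 11 counts (0.33, edgeR adjusted p = 0.749). ADAMTS14 was not tested, at 5, 7 and 7 counts.

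Among the remaining ADAMTS genes, ADAMTS17, a gene of connective tissue and eye disorders, had 4.59 and 3.94 CPM against 7.45 CPM in the control, a log2 fold change of -0.80 with an SE of 0.40 (edgeR adjusted p = 0.129). It was the member that passed only after correction for length (-1.21, edgeR adjusted p = 0.0349), and it did not pass with the GC trend removed as well (-1.07, edgeR adjusted p = 0.0952). ADAMTS13, the protease of von Willebrand factor, had 3.06, 4.14 and 5.81 CPM (log2 fold change -0.69, SE 0.45, edgeR adjusted p = 0.256), and ADAMTS6, which acts on fibrillin microfibrils, had 8, 7 and 15 counts (-0.89, SE 0.71, edgeR adjusted p = 0.362). Both labelled libraries lay below the control for these 3 genes, as they did for 42.8% of all tested genes. Within the members' range of lengths they did so for 2390 of 7667 other tested genes. ADAMTS7, a protease of the cartilage protein COMP, had 4.40, 3.94 and 2.36 CPM, and ADAMTS16 had 2.68, 3.74 and 3.27 CPM, and neither passed.

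Of the 4 tested ADAMTSL genes, ADAMTSL3 rose. It had 25.2 and 23.1 CPM in the labelled libraries and 11.8 CPM in the control. Its group mean was 24.1 ± 1.54 CPM (SD, n = 2), and its log2 fold change was 1.03 with an SE of 0.25 (edgeR adjusted p = 0.00116). Its labelled libraries agreed closely and both were above the control. ADAMTSL3 has a transcript of 7336 bases, and after correction for length it was at 0.55 and did not pass (edgeR adjusted p = 0.125). ADAMTSL2, a microfibril protein mutated in geleophysic dysplasia, had 3.06, 3.74 and 5.81 CPM (-0.77, SE 0.46, edgeR adjusted p = 0.205). ADAMTSL4, a fibrillin-binding protein of the eye, had 4.78, 7.29 and 6.72 CPM (-0.16, edgeR adjusted p = 0.798), and ADAMTSL5 had 5.54, 8.87 and 7.27 CPM (-0.01, edgeR adjusted p = 0.982). For both, library 1 was below and library 2 above the control.

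**Figure D2:**
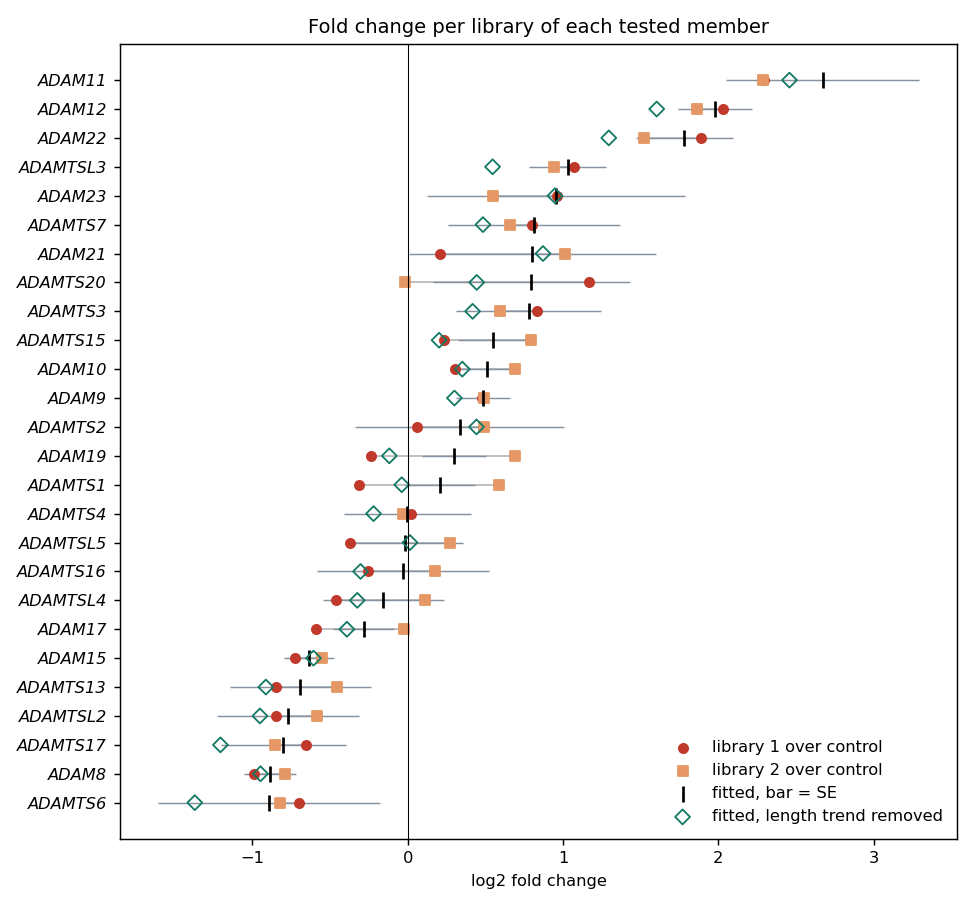
Log2 fold change over the control of each tested member, in library 1 and library 2, as fitted by edgeR with its SE, and as fitted after correction for length. ADAM11, ADAM12 and ADAM22 stay above 1 and ADAM8 and ADAM15 stay below 0 in every form, while the libraries of ADAM19 and ADAMTS1 lie on opposite sides of 0.

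The members were set against genes of similar length, because fold change followed transcript length across all tested genes (Spearman coefficient 0.467 over 14016 genes, which share the same libraries and are not independent). Members have long transcripts, with a median of 4406 bases over all 38 against 2692 for all identifiers. The median log2 fold change of the tested members was 0.32, beside -0.01 over all tested genes and 0.16 over tested genes within the same range of lengths. It was 0.11 after that correction, where that of all tested genes was -0.00. The members' median also differed between the labelled libraries, at 0.04 in library 1 and 0.49 in library 2.

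For each tested member the 200 other tested genes nearest in length were taken. On average over members 25.3% of those neighbours rose and 5.96% fell, which sums to 6.6 and 1.6 genes over the 26 members, beside the 6 members that rose and the 2 that fell. In fold change 14 members were above the median of their neighbours and 12 below, with a median difference of 0.10. ADAM12 stood at percentile 99 of its neighbours in library 1 and 98.5 in library 2, ADAM11 at 99.5 and 100, and ADAM22 at 97.5 in each. ADAMTSL3 was at percentiles 84 and 83, ADAM9 at 73.5 and 77.5, and ADAM10 at 60 and 82. At the other end ADAM8 was at percentiles 5.5 and 7, ADAM15 at 8.5 and 13, ADAMTS17 at 3 and 3.5, and ADAMTS6 at 4 in each. In the fitted fold change 5 members lay at or above percentile 90 and 6 at or below percentile 10. About 10% of genes lie at each such end by construction, and neighbours were not matched on counts. Among these members ADAM21, ADAM23, ADAMTS6, ADAMTS13, ADAMTS17 and ADAMTSL2 had few counts and did not pass before correction for length. Of the members that passed, ADAM11, ADAM12 and ADAM22 lay at the upper end of the range for their length and ADAM8 and ADAM15 at the lower end. ADAMTSL3, ADAM10 and ADAM9 lay inside it.

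**Figure D3:**
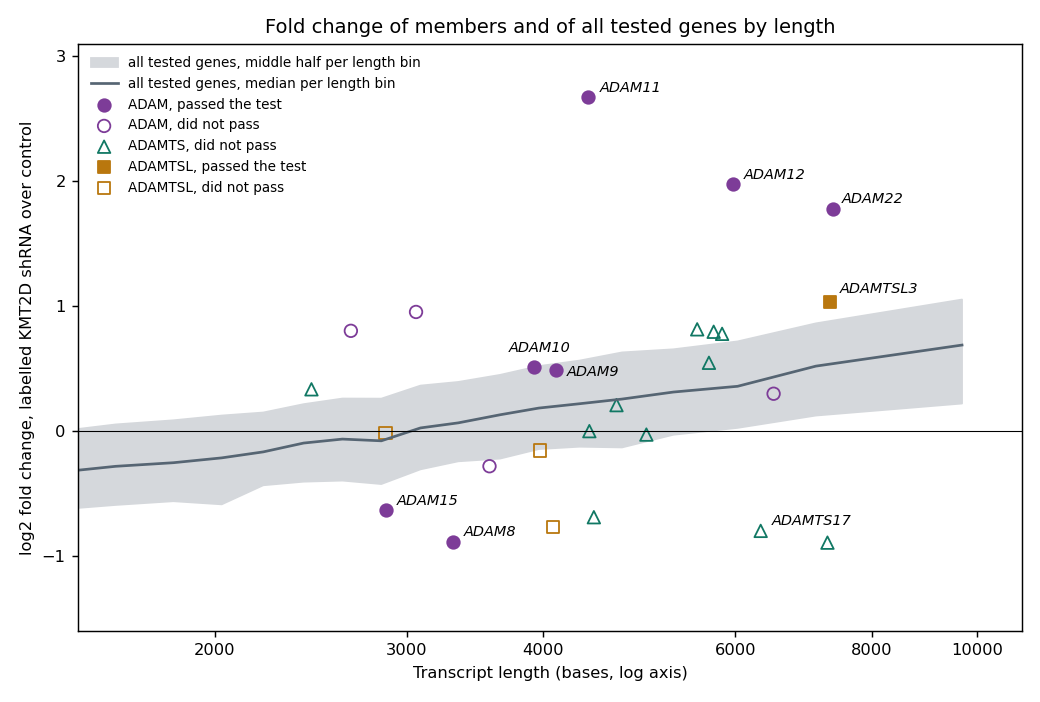
Fitted log2 fold change of the tested members against transcript length (log axis), with the median and the interquartile range of all tested genes in bins of length. The median of all genes climbs with length, and ADAM11, ADAM12 and ADAM22 lie far above it while ADAM8, ADAM15 and ADAMTS17 lie below.

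The libraries labelled KMT2D shRNA differed from each other for several members. Among members with a mean of 5 CPM or more, the median absolute log2 difference between library 1 and library 2 was 0.37 over 15 members, against 0.17 over 11908 tested genes at that level. At a mean of 100 CPM or more it was 0.19 over 4 members, against 0.13 over 2372 tested genes. Members and genes were not matched on counts, so these medians are not read as a trait of the family. ADAM19 was 1.90 times as high in library 2 as in library 1 (95% counting interval 1.76 to 2.06). Of 2372 tested genes with a mean of 100 CPM or more, 0.379% differed at least as much. ADAMTS1 was 1.89 times as high (1.55 to 2.30), ADAM17 1.49 times (1.23 to 1.80), ADAMTS15 1.49 times (1.21 to 1.83) and ADAM10 1.31 times (1.11 to 1.54). Of tested genes at 5 CPM or more, 1.1% differed at least as much as ADAM19 and 1.2% as much as ADAMTS1. For ADAM17, ADAMTS15 and ADAM10 these shares were 6%, 6.17% and 15.4%. In all, 7 members had an interval above 1 and 1, ADAMTS20, had an interval below 1. The share of all tested genes with such an interval was not counted, so the 7 and 1 are not read as a trait of the family. With 1 library on each side these differences have no replicate check.

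Genes that work with the proteases were taken from lists of 69 genes for maturation, activation, inhibition and substrates. Of 52 tested, 11 rose and 9 fell and the median log2 fold change was -0.07, beside -0.01 over all tested genes. These are 21.2% and 17.3% of the list, beside 16.5% and 14.5% of all tested genes, and the shares among genes nearest in length sum to 11.4 genes that rose and 4.8 that fell. After correction for length 10 rose and 6 fell, where 8.7% and 9.14% of all tested genes did. Of the genes that carry ADAM17 and ADAM10 to the surface and steer their substrate choice, 3 of 9 fell and 0 rose, where the shares among genes nearest in length sum to 1.1 genes in each direction. The list's median was -0.56, or -0.30 after correction for length, when 1 fell. At an unadjusted edgeR p under 0.05 there were 1 higher and 4 lower on this list, and DESeq2 called 0. Of 14016 tested genes 5711 lay under that unadjusted threshold in either direction. FRMD8, which stabilises the complex of iRhom and ADAM17 at the cell surface, fell from 73.7 CPM to 44.2 and 42.2 CPM (log2 fold change -0.77, SE 0.18, edgeR adjusted p = 0.000781). The ADAM10-binding tetraspanin gene TSPAN15 fell from 130 to 94.8 and 82.4 CPM (-0.56, edgeR adjusted p = 0.0109), and the iRhom gene RHBDF1 fell from 27.1 to 13.4 and 22.5 CPM (-0.60, edgeR adjusted p = 0.04996). Of these calls FRMD8 alone held after correction for length (-0.91, edgeR adjusted p = 0.000504). TSPAN15 was then at -0.30 (edgeR adjusted p = 0.233) and RHBDF1 at -0.61 (edgeR adjusted p = 0.0872).

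FURIN, the convertase that removes the prodomain of many ADAM and ADAMTS proteins, fell from 55.9 to 42.2 and 36.7 CPM (log2 fold change -0.50, SE 0.19, edgeR adjusted p = 0.0368). FURIN passed after correction for length (-0.70, edgeR adjusted p = 0.00923), but not with the GC trend removed as well (edgeR adjusted p = 0.103), with library totals (0.0862), without a filter on low counts (0.12) or with DESeq2 (adjusted p = 0.425). PCSK7 did not pass (-0.25, edgeR adjusted p = 0.295). Among 4 tested inhibitors TIMP1, which blocks ADAM10 and many matrix metalloproteases, fell from 1033 CPM to 264 and 323 CPM (-1.82, SE 0.16, edgeR adjusted p = 5.28e-13). RECK, a membrane-anchored inhibitor, had 6.50, 7.49 and 7.63 CPM, and neither RECK nor TIMP2 passed (edgeR adjusted p = 0.827 and 0.807). PAPLN, or papilin, had 8.79, 10.6 and 13.4 CPM (-0.47, edgeR adjusted p = 0.238), and passed as lower after correction for length (-0.83, edgeR adjusted p = 0.0497) but not with the GC trend removed as well (edgeR adjusted p = 0.129). The enzymes that add O-fucose and glucose to thrombospondin repeats, POFUT2 and B3GLCT, did not pass (log2 fold changes 0.23 and 0.68, edgeR adjusted p = 0.345 and 0.147).

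Of 10 tested genes on the list of matrix substrates of ADAMTS proteases 5 rose and 0 fell, beside 16.5% and 14.5% of all tested genes. The list also holds CCBE1 and VEGFC, named above with ADAMTS3. Transcripts on the list are long (median 5874 bases), and the shares among genes nearest in length sum to 3.6 genes that rose and 0.5 that fell. The list's median log2 fold change was 0.86, or 0.35 after correction for length. At an unadjusted edgeR p under 0.05 there were 5 higher and 1 lower, where 5711 of 14016 tested genes lay under it in either direction. DESeq2 called 4 higher and 0 lower, with no adjusted p for VCAN, beside 5.32% and 3.25% of all tested genes. FBN2, a fibrillin, rose from 116 to 502 and 487 CPM (2.09, SE 0.18, edgeR adjusted p = 7.73e-13), the latent TGF-beta binding protein gene LTBP1 from 243 to 722 and 776 CPM (1.62, SE 0.17, edgeR adjusted p = 2.89e-10), and THBS1, or thrombospondin 1, from 76.3 to 176 and 215 CPM (1.36, SE 0.19, edgeR adjusted p = 1.71e-07). The proteoglycan gene VCAN rose from 2.54 to 8.22 and 11.4 CPM (1.94, SE 0.43, edgeR adjusted p = 0.000476). After correction for length 5 rose and 1, the ADAMTS3 partner gene CCBE1, fell. VCAN was then at 1.38 (edgeR adjusted p = 0.0286), FBN2 at 1.40 and FBN1, the other gene that rose, at 0.66 (edgeR adjusted p = 0.0289). With the GC trend removed as well, VCAN (1.32, edgeR adjusted p = 0.0885) and FBN1 (0.63, edgeR adjusted p = 0.144) did not pass, while FBN2, LTBP1 and THBS1 did.

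Of 25 tested membrane proteins known to be shed by ADAMs 6 rose and 4 fell, which is 24% and 16% of the list beside 16.5% and 14.5% of all tested genes. The shares among genes nearest in length sum to 5.2 genes that rose and 2.3 that fell. The list's median log2 fold change went from 0.23 to 0.08 after correction for length, when 5 rose and 1 fell, beside 8.7% and 9.14% of all tested genes. N-cadherin (CDH2), an ADAM10 substrate, went from 52.5 to 126 and 112 CPM (log2 fold change 1.18, SE 0.19, edgeR adjusted p = 2.86e-06), the receptor kinase gene MET from 213 to 444 and 471 CPM (1.10, SE 0.17, edgeR adjusted p = 2.21e-06), and the adhesion molecule gene ALCAM from 217 to 440 and 484 CPM (1.09, SE 0.17, edgeR adjusted p = 2.94e-06). The syndecan gene SDC4 fell from 296 to 133 and 135 CPM (-1.14, SE 0.16, edgeR adjusted p = 3.92e-07). Of the epidermal growth factor receptor ligands on the list, AREG, EREG, HBEGF, TGFA and BTC did not pass, with log2 fold changes from -0.14 to 0.35, while EPGN fell by 0.60 on the log2 scale (edgeR adjusted p = 0.0311) and did not pass after correction for length (edgeR adjusted p = 0.113). These are RNA levels, and neither cleavage nor the amount of protein was measured.

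**Figure D4:**
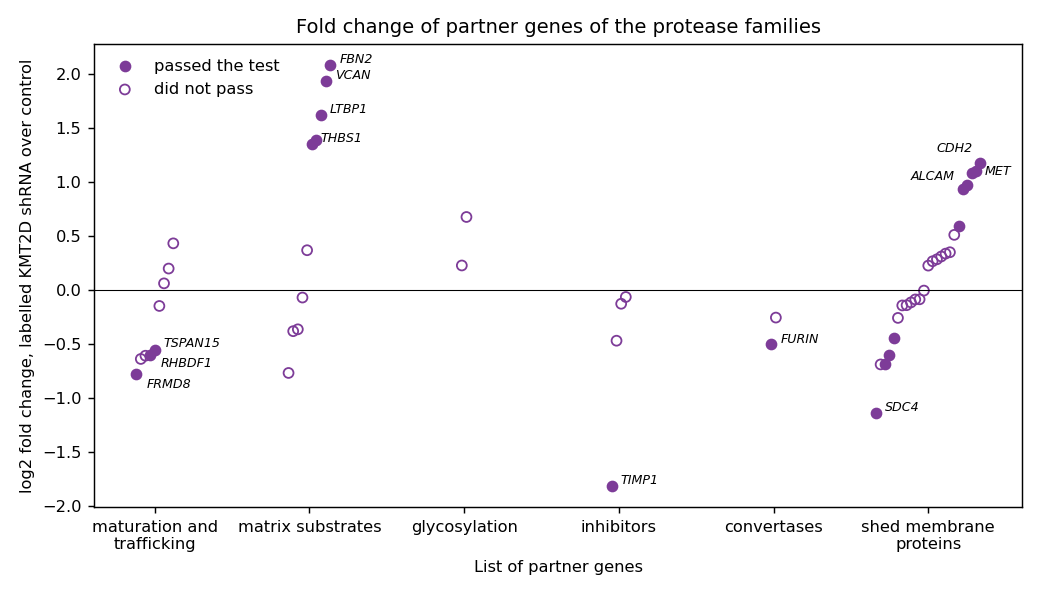
Fitted log2 fold change of the 52 tested partner genes, grouped by list; filled points passed edgeR's test at an adjusted p under 0.05 and named genes are those described in the text. Over all partners 11 points above 0 and 9 below it are filled, which is 21.2% and 17.3% beside 16.5% and 14.5% of all tested genes; TSPAN15 and RHBDF1 did not pass after correction for length.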

How the data were processed

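RNA-seq of PC-3 cells was deposited as 1 table per library. Per the file headers each table gives an expected count, an FPKM value and a transcript length for each Entrez gene, and the authors deposited these expected counts and FPKM values without pooling libraries. The submitters' processing notes name HISAT, Bowtie2 and hg19 without a version or the step each served. No strand step is named in the labels' protocols. Gene names came from the RefSeq table, which matched 99.5% of identifiers. Expected counts were rounded, filtered with filterByExpr, scaled by TMM and tested with edgeR 4.0.16 in R 4.3.3 (quasi-likelihood F test, Benjamini-Hochberg adjustment over 14016 genes, threshold 0.05). The fit had 1 residual degree of freedom and a common dispersion of 0.0119, so the spread of each gene was estimated largely from all genes. CPM used TMM sizes, and 3 counts, the floor for a count of 0, equalled 0.573, 0.591 and 0.545 CPM. The 95% intervals of ratios cover counting error only. The length trend was removed as a lowess offset (span 0.3), and a GC trend likewise for 98.2% of tested genes. DESeq2 1.42.0 and limma 3.58.1 (on log2(FPKM + 1) or log2(FPKM + 0.1), which understates changes of low genes) were alternatives. Members named with values passed the test, reached a mean of 1 FPKM, or changed call with the length trend removed; the other members with values were added after their values were seen. Of each partner list up to 4 genes that passed are named, by the log2 fold change in the less changed labelled library. PCSK7, TIMP2, RECK, PAPLN, FBN1, CCBE1, POFUT2, B3GLCT, the receptor ligands and TM2D2 were named in addition, after their values were seen. The members and all lists were chosen with earlier results of these data known. Upstream windows came from the RefSeq promoter table on GRCh38.p14 and were searched for motifs on both strands. The scripts were tested on simulated data. Some marker genes are not reported here.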

Additional observations from a re-analysis of the deposited data

How the results depend on the processing

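The count of 6 members that rose and 2 that fell became 3 and 3 with the length trend removed, 3 and 1 with the length and GC trends removed, 2 and 2 with DESeq2, 5 and 2 with library totals, and 4 and 1 without a filter on low counts. In limma on FPKM with either pseudocount, and without a filter, 0 rose and 0 fell among members and partners, as among all genes. At an unadjusted limma p under 0.05, 5 members were higher in each of these fits and 2, 2 and 4 were lower, and 10, 10 and 9 partners were higher and 4, 4 and 6 lower. Over all genes 4298 and 4215 of 14537, and 4568 of 18331 without a filter, lay under that threshold in either direction. The 11 partners that rose became 7 with the length and GC trends removed. The 9 partners that fell became 4 with library totals, 3 without a filter, 5 at a mean of 5 CPM or more, 4 with the length and GC trends removed and 2 with DESeq2. The cause of these changes was not tested. Over all genes 2319 rose and 2033 fell, against 1849 and 1396 with library totals, 1048 and 849 without a filter, 746 and 456 with DESeq2, 1219 and 1281 with the length trend removed and 780 and 838 with both trends removed. Direction reversed for KMT2D (-0.69 with the length trend removed, -0.57 with both), ADAM19 (-0.12, -0.06), ADAMTS1 (-0.04, -0.06), ADAMTSL5 (0.02, 0.17, and 0.00 with library totals) and ADAMTS4 (0.01 with DESeq2 size factors, 0.02 with library totals, 0.01 in limma). Leaving out each labelled library in turn left 1 library a group and so gave values with no test: the members' median log2 fold change ranged from 0.04 to 0.49 and that of KMT2D from 0.10 to 0.46. No paired analysis was possible because the control label carries no replicate number and the group has 1 library. Depth limits the members with few counts, where a count of 0 allows up to 0.591 CPM.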
